A study of Mus musculus with 14 samples.

Results

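miR-451, miR-144 and miR-486 are miRNAs that developing red blood cells make in large amounts and mature ones keep. Their levels were examined along the mouse epididymis. They were taken by name from the count tables: miR-451a, miR-144-3p, miR-144-5p, miR-486a-5p and miR-486a-3p from whole tissue, which are 5 of 900 mature miRNAs, and from epithelial cells miR-3107-5p, miR-486-5p, miR-451 and both miR-144 arms, which are 5 of 677. The 8 names belong to 999 in both tables. The small RNA libraries came from 8-week-old male Swiss mice whose blood vessels had been flushed with PBS before dissection. The epididymis, the duct in which sperm mature after leaving the testis, was cut into caput (head), corpus (body) and cauda (tail), and tissue of several mice was pooled for each library. Whole tissue gave 3 caput, 2 corpus and 3 cauda libraries, and epithelial cells gave 2 libraries from each region. The epithelial cells were those still in suspension after digestion of the tissue and a culture step in which other cells attached to the plate. The study describes its replicates both as biological and as technical ones, so the p-values below measure only the spread between these libraries.

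The whole tissue libraries held from 1243398 to 2135501 miRNA counts (median 1643272) and the epithelial libraries from 89039 to 362867 (median 231172). The epithelial corpus libraries were the shallowest, with 127111 and 89039 counts, where 3 counts correspond to 24.3 and 30.6 CPM. All intervals and limits drawn from counts cover counting error only, since reads were amplified without molecular identifiers. Levels are given in CPM, which put all libraries on an equal size after TMM, a factor that aligns the bulk of the miRNAs between the libraries of a table.

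miR-144 and miR-451 are cut from a shared primary transcript that the erythroid factor GATA1 switches on. miR-144 is processed by Dicer like most miRNAs, while the short hairpin of miR-451 skips Dicer and is trimmed after Argonaute 2 has sliced it. miR-486 is encoded within the ankyrin 1 gene, whose products form part of the red cell skeleton and also a small muscle protein, and it is abundant in red cells and in muscle. Mature red cells have no nucleus yet keep these miRNAs, so blood left in a vessel carries them into a tissue sample.

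Sequences were found in RefSeq (GRCm38.p6) for miR-451a and both miR-144 arms, and are shown because the seeds set the 3 miRNAs apart. Capitals mark the seed, bases 2 to 8 from the 5′ end.
miR-451a: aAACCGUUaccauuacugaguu
miR-144-3p: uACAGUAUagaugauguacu
miR-144-5p: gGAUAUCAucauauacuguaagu
The 3 seeds differed from each other, and none of them was shared with another of the 1679 mouse mature miRNAs in the RefSeq table. Over bases 2 to 7 alone, miR-144-3p matched miR-101a-3p. The precursors are shown because they differ in how the mature miRNA sits in the hairpin, with mature bases in capitals.
Mir144: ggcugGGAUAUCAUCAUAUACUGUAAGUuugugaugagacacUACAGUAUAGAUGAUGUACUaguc
Mir451a: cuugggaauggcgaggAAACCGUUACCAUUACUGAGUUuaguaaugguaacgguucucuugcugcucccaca
miR-144-5p occupied positions 6 to 28 and miR-144-3p positions 43 to 62 of a 66-base hairpin, whereas miR-451a ran from position 17 to 38 of a 72-base hairpin as its only mature product on that strand.

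Mir144 (chr11:78073005-78073070) and Mir451a (chr11:78073170-78073241) lie on the plus strand of GRCm38 with 99 bases between them, and neither overlapped a protein-coding gene in the GENCODE annotation. The gene Eral1 lies 134 bases away from Mir451a. Mir451b is annotated opposite Mir451a on the minus strand, and neither count table had a value for miR-451b. Mir486 (chr8:23142555-23142682, plus strand) and Mir3107 (chr8:23142573-23142662, minus strand) overlap each other, within an intron of Ank1 and an intron of the antisense gene Gm15816. RefSeq gives mir-486b as another name of Mir3107.

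miR-486a-5p and miR-486b-5p had equal counts in 8 of 8 whole tissue libraries, as had miR-486-5p and miR-3107-5p in 6 of 6 epithelial libraries. Fractions appeared in 3 and 5 of these libraries, so reads that fitted both names were taken as divided equally, and which of the 2 overlapping genes they came from cannot be told from the counts. Each pair was treated as 1 measurement, which left 5 separate measurements in whole tissue and 4 in epithelial cells, and the pair was summed wherever its level was compared with that of another miRNA.

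miR-451a, which accumulates late in red cell maturation, rose along the duct in whole tissue. Its counts were 41, 28 and 33 in caput, 78 and 65 in corpus, and 134, 264 and 139 in cauda. In CPM these were 26.4, 19.3 and 18.1 in caput, 58.3 and 42.6 in corpus, and 69.0, 162.5 and 81.9 in cauda. Every corpus library lay above every caput library and every cauda library above every corpus library, and cauda replicate 2 was the highest. The means were 21.3 ± 4.46 (SD, n = 3), 50.5 ± 11.1 (n = 2) and 104.5 ± 50.7 CPM (n = 3), and miR-451a moved from rank 235 of 312 miRNAs identified in caput (mean count above 10) to rank 152 of 325 in cauda.

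The rise from caput to cauda was 4.56-fold (95% CI 2.57 to 8.08, limma-voom FDR = 0.000361). It was 2.35-fold from caput to corpus (1.20 to 4.61, FDR = 0.0325). From corpus to cauda it was 1.94-fold (1.12 to 3.36, FDR = 0.0434), which passed the FDR threshold of 0.05 but not the 2-fold threshold that a call also required. It was called with edgeR (FDR = 0.0274), with DESeq2 (0.0180), with the replicate number as a block (0.0110), and without cauda replicate 1 (0.00742) or cauda replicate 3 (0.0376), in a range from 0.0110 to 0.0955 over the alternatives. The caput to corpus call had FDR values from 0.00282 to 0.0386 over 9 alternative settings, and was lost without caput replicate 2 (FDR = 0.0794), caput replicate 3 (0.0943), corpus replicate 1 (0.154) or corpus replicate 2 (0.0639), and the caput to cauda call was kept without any 1 of the 8 libraries. In pooled tissue, fewer cells of a type and less RNA per cell cannot be told apart.

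miR-144-3p, the arm that represses targets in erythroid cells, was near the limit of detection in caput. Whole tissue counts were 3, 11 and 3 in caput, 23 and 20 in corpus, and 42, 64 and 41 in cauda. The CPM were 1.93, 7.59 and 1.65 in caput, 17.2 and 13.1 in corpus, and 21.6, 39.4 and 24.2 in cauda. The regions did not overlap, caput replicate 2 was the highest caput library and cauda replicate 2 again the highest of all. The level was 8.75-fold higher in cauda than in caput (95% CI 3.82 to 20.1, FDR = 0.000392) and 4.87-fold higher in corpus than in caput (1.93 to 12.3, FDR = 0.00846), and without caput replicate 2 these became 13.8-fold (FDR = 0.000550) and 7.67-fold (FDR = 0.00633). Between corpus and cauda the log2 change of 0.85 (-0.01 to 1.70, FDR = 0.0851) did not pass, and it was called without cauda replicate 1 (1.03, FDR = 0.0391) and with the replicate number as a block (1.13, FDR = 0.0283). The FDR ran from 0.0283 to 0.214 over 8 alternatives.

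miR-144-5p, the opposite arm of the same hairpin, was counted 4, 8 and 7 times in caput, 7 and 13 times in corpus, and 29, 63 and 27 times in cauda. These were 2.57, 5.52 and 3.84 CPM, then 5.23 and 8.53 CPM, then 14.9, 38.8 and 15.9 CPM. Caput and corpus overlapped, and all cauda libraries were higher than all others, with cauda replicate 2 highest. The level in cauda was 5.11-fold that in caput (95% CI 2.16 to 12.1, FDR = 0.00301) and 2.93-fold that in corpus (1.21 to 7.09, FDR = 0.0414). The second of these calls was lost without caput replicate 2 (FDR = 0.0522), caput replicate 3 (0.0619), corpus replicate 1 (0.181) or corpus replicate 2 (0.140), and with only corpus and cauda in the fit (0.0670, the highest over 8 alternatives, whose lowest was 0.00258).

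miR-486a-5p, a promoter of erythroid and muscle differentiation, was the most abundant of the group in whole tissue. Each of its names had 104, 91.5 and 116 counts in caput, 262 and 265 in corpus, and 1439.5, 1633 and 2038.5 in cauda. The CPM were 66.9, 63.1 and 63.7 in caput, 195.7 and 173.8 in corpus, and 741, 1005 and 1202 in cauda. The 3 regions were far apart, and here cauda replicate 3, not cauda replicate 2, was the highest library. The means were 64.6 ± 2.04 (SD, n = 3), 184.8 ± 15.5 (n = 2) and 983 ± 231.3 CPM (n = 3). The rise was 2.84-fold from caput to corpus (95% CI 1.96 to 4.13, FDR = 0.000539), 5.21-fold from corpus to cauda (3.82 to 7.12, FDR = 1.08e-05) and 14.8-fold from caput to cauda (10.9 to 20.2, FDR = 9.12e-08).

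miR-486a-3p, the passenger arm of the same hairpin, was almost confined to the cauda libraries of whole tissue, with counts of 2, 1 and 1 in caput, 2 and 2 in corpus, and 61, 46 and 61 in cauda. The cauda libraries held 31.4, 28.3 and 36.0 CPM and the other 5 libraries from 0.549 to 1.49 CPM. On pooled counts scaled to library totals, the cauda level was 49.0 times that of caput (95% counting interval 18.8 to 182.0) and 23.1 times that of corpus (8.84 to 85.6). The TMM-scaled fit gave smaller ratios, 28.9 from caput to cauda (95% CI 14.6 to 57.2, FDR = 4.28e-06) and 18.4 from corpus to cauda (8.46 to 39.9, FDR = 8.29e-05), and both estimates rest on 4 counts in the lower region. Its counterpart miR-486b-3p had 0 counts in caput and corpus, where 3 counts would be from 1.65 to 2.24 CPM, and 6, 9 and 1 counts in cauda.

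**Figure D1:**
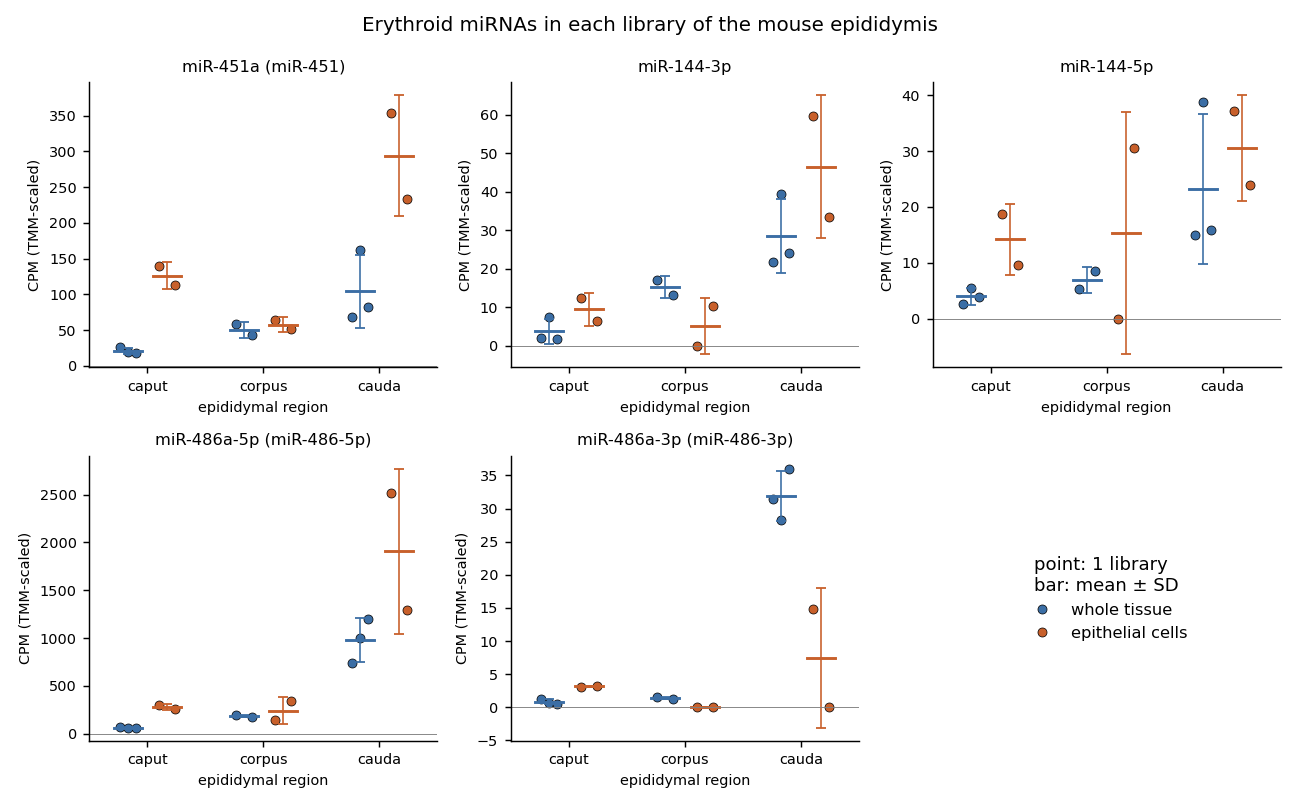
CPM (vertical axis, TMM-scaled within each preparation) of miR-451, both miR-144 arms and both miR-486 arms in caput, corpus and cauda (horizontal axis). Each point is a library of whole tissue (blue) or epithelial cells (orange), bars show the mean ± SD, and within each preparation the cauda points lie highest except for a cauda epithelial library with 0 counts of miR-486-3p and cauda epithelial replicate 2 of miR-144-5p (23.9 CPM, against 30.6 CPM in corpus replicate 2).

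Over whole tissue, 3 of 3 members tested were called higher in corpus than in caput, against 14.1% of all 334 miRNAs tested. From corpus to cauda, 3 of 5 were called higher, against 14.4% of 341, and from caput to cauda 5 of 5, against 27.9% of 355. A miRNA was tested when its mean count was above 10 in either region, and miR-144-3p, miR-144-5p and miR-486a-3p passed against caput through the later region alone. From corpus to cauda, miR-144-5p and miR-486a-3p, which are 2 of the 3 called, passed through cauda alone. The direction of these members was set by the filter, so these counts are no support for it. The median log2 change of all miRNAs tested was -0.05 from caput to cauda, and those of the 5 members ran from 2.19 for miR-451a to 4.85 for miR-486a-3p. Scaling to library totals instead of TMM moved the median of all by 0.35 from caput to cauda and by 0.33 from caput to corpus. Relative to that median, miR-451a was 2.23 with TMM and 2.24 with totals from caput to cauda, and miR-486a-5p was 3.93 and 3.94.

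In epithelial cells, miR-451 was lowest in the corpus. Its counts were 45 and 35 in caput, 8 and 5 in corpus, and 95 and 49 in cauda. The CPM were 140.0 and 112.8 in caput, 64.9 and 51.1 in corpus, and 353.7 and 234.0 in cauda. The 3 regions did not overlap, with corpus at the bottom and cauda at the top. The means were 126.4 ± 19.3, 58.0 ± 9.79 and 293.9 ± 84.6 CPM (SD, n = 2 each).

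miR-451 rose 2.31-fold from caput to cauda (95% CI 1.42 to 3.75, FDR = 0.0166) and 4.69-fold from corpus to cauda (2.25 to 9.78, FDR = 0.0224), the latter resting on 13 counts in corpus. The change from caput to corpus did not pass, at 0.493-fold (0.231 to 1.05, FDR = 0.174). The caput to cauda call was lost without caput replicate 1 (FDR = 0.0562), caput replicate 2 (0.110) or cauda replicate 1, where the FDR of 0.0403 passed but the log2 change fell to 0.95. The corpus to cauda call was lost without caput replicate 2 (FDR = 0.0656), corpus replicate 1 (0.0683) or corpus replicate 2 (0.0626).

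miR-144-3p was counted 4 and 2 times in epithelial caput, 0 and 1 times in corpus, and 16 and 7 times in cauda. In CPM this was 12.4 and 6.44 in caput, 0 and 10.2 in corpus, and 59.6 and 33.4 in cauda. Both cauda libraries exceeded all 4 others, and caput and corpus overlapped. On pooled counts the cauda level was 5.70 times that of caput (95% counting interval 2.26 to 17.1) and 10.8 times that of corpus (1.75 to 443). The fit gave ratios of 4.52 and 6.11, and the second went to 3.11 without corpus replicate 1 and to 11.7 without corpus replicate 2. The test called the first difference (FDR = 0.0336) and not the second (FDR = 0.0729). The second was called with the filter lowered to 1 count (FDR = 0.0296, in a range up to 0.188 over 8 alternatives). The first call was lost with DESeq2 (FDR = 0.129, in a range from 0.0221 over 8 alternatives) and without caput replicate 1 (0.106) or caput replicate 2 (0.175).

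miR-144-5p had 6 and 3 counts in epithelial caput, 0 and 3 in corpus, and 10 and 5 in cauda, too few to be tested in any comparison. The 2 corpus libraries spanned from 0 to 30.6 CPM, which overlapped both other regions, while cauda at 37.2 and 23.9 CPM lay above caput at 18.7 and 9.67 CPM. The pooled ratio of cauda to caput was 2.48 (95% counting interval 1.02 to 6.43).

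miR-486-5p, identical in count to miR-3107-5p, was again the most abundant of the group. Each name had 97 and 78.5 counts in caput, 17.5 and 33.5 in corpus, and 675.5 and 271.5 in cauda. The CPM were 301.8 and 252.9 in caput, 142.0 and 342.1 in corpus, and 2515 and 1297 in cauda. The corpus libraries fell on either side of the caput libraries, and both cauda libraries were above all others although they differed from each other by more than the caput pair did. The rise was 6.60-fold from caput to cauda (95% CI 3.51 to 12.4, FDR = 0.00136) and 8.19-fold from corpus to cauda (3.68 to 18.3, FDR = 0.00980), the latter falling to 5.17-fold and losing its call without corpus replicate 1 (FDR = 0.0574). From caput to corpus the ratio was 0.805 (0.338 to 1.92, FDR = 0.714), and its log2 value turned from -0.31 to 0.35 without corpus replicate 1. miR-486-3p had 1 and 1 counts in caput, 0 in both corpus libraries, and 4 and 0 in cauda, and miR-3107-3p had 1 count, in cauda replicate 2.

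Among the epithelial comparisons, 3 of 3 members tested were called higher in cauda than in caput, against 13.9% of 216 miRNAs, and 2 of 3 higher in cauda than in corpus, against 6.77% of 192. From caput to corpus, limma-voom called 0 of 2, against 12.2% of 205 in either direction, and 0 also at an unadjusted p under 0.05, with edgeR and with DESeq2. miR-144-3p was tested only because of its cauda count, as was miR-451 from corpus to cauda. Their direction there was set by the filter, so the counts that include them are no support for it. Through both regions, miR-451 and miR-486-5p passed from caput to cauda, and miR-486-5p alone from corpus to cauda.

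Epithelial cells and whole tissue were compared in a joint fit of the 213 miRNAs identified in both tables, with all 14 libraries scaled together. Preparation, library depth and any sequencing batch cannot be told apart in this fit or in its interactions. In caput, miR-451a had 26.6, 19.0 and 18.7 CPM in whole tissue and 104.6 and 97.9 CPM in epithelial cells on this scale. miR-486a-5p had 67.6, 61.9 and 65.7 CPM against 225.5 and 219.6 CPM. For both miRNAs the epithelial libraries were higher without overlap, by 4.80-fold for miR-451a (95% CI 2.53 to 9.11, FDR = 0.000431) and 3.41-fold for miR-486a-5p (1.91 to 6.10, FDR = 0.00128). miR-144-3p did not pass, at 2.66-fold (0.911 to 7.74, FDR = 0.102). It was called with library totals (FDR = 0.0429, in a range up to 0.328 over 7 alternatives) and without whole tissue caput replicate 2 (4.07-fold, FDR = 0.0244). Thus 2 of 3 members tested were called higher in epithelial caput, against 12.2% of all miRNAs. The median log2 difference of all miRNAs was -0.31 in caput with TMM and 0.11 with library totals, and relative to it miR-451a stood at 2.57 and 2.58.

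In cauda, miR-451a had 76.7, 188.8 and 93.4 CPM in whole tissue and 305.6 and 218.5 CPM in epithelial cells. Both epithelial libraries were above the whole tissue libraries, with whole tissue replicate 2 the nearest. The difference was 2.43-fold (95% CI 1.47 to 4.01, FDR = 0.00483), and it fell just under 2-fold without whole tissue cauda replicate 1 (log2 0.99, FDR = 0.0153) and lost its call without epithelial cauda replicate 1 (log2 0.99, FDR = 0.108). miR-486a-5p was 1.53-fold higher (1.06 to 2.20, FDR = 0.0406), under the 2-fold threshold, and its libraries overlapped, at 824, 1168 and 1370 CPM against 2173 and 1210 CPM. With miR-144-3p at 1.38-fold (0.650 to 2.93, FDR = 0.429), 1 of 3 members was called higher in epithelial cauda, against 16.4% of all miRNAs.

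In corpus, the preparations overlapped for miR-451a, with 64.6 and 48.0 CPM in whole tissue and 65.7 and 51.2 CPM in epithelial cells, and the ratio was 1.13 (95% CI 0.471 to 2.71, FDR = 0.838). For miR-486a-5p the log2 difference was 0.13 (-0.93 to 1.19, FDR = 0.841) and for miR-144-3p -1.11 (-2.58 to 0.36, FDR = 0.184). limma-voom called 0 of 3 members in corpus, against 30.0% of all miRNAs in either direction, and 0 at an unadjusted p under 0.05, with edgeR and with DESeq2. The epithelial corpus libraries held 13 counts of miR-451 together. The sign of the miR-451a difference turned without whole tissue corpus replicate 2 (log2 -0.044), and that of miR-486a-5p without epithelial corpus replicate 2 (-0.44). The miR-144-3p difference went to -0.15 without epithelial corpus replicate 1 and to -2.06 without replicate 2.

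Whether the regional change itself differed between preparations was tested as an interaction. From caput to corpus the epithelial log2 change minus that of whole tissue was -2.09 for miR-451a, -2.52 for miR-144-3p and -1.64 for miR-486a-5p. Without epithelial corpus replicate 1 the last 2 were -1.56 and -0.99, and without replicate 2 -3.49 and -2.24. limma-voom called 0 of 3 (FDR = 0.0970, 0.123 and 0.117), although all 3 had an unadjusted p under 0.05, and 5.16% of the 213 miRNAs were called. edgeR also called 0 and DESeq2 called 2, miR-451a (FDR = 0.0211, highest 0.122 over 7 alternatives) and miR-486a-5p (FDR = 0.0271, highest 0.118 over 8). miR-451a was also called without whole tissue cauda replicate 2 (FDR = 0.0210). From corpus to cauda 0 of 3 were called, against 4.69%, with 0 at an unadjusted p under 0.05, with edgeR and with DESeq2.

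From caput to cauda the corresponding differences were -1.16 for miR-486a-5p, -0.98 for miR-451a and -0.95 for miR-144-3p (-1.56 without whole tissue caput replicate 2), a smaller rise in epithelial cells. limma-voom called 0 of 3, against 20.2% of all miRNAs, and 1 had an unadjusted p under 0.05. That miRNA, miR-486a-5p, had FDR = 0.0744, and was called with edgeR (FDR = 0.0415), with DESeq2 (0.0197) and with library totals (0.0385), in a range up to 0.110 over 8 alternatives. It was also called without whole tissue cauda replicate 1 (0.0226), epithelial cauda replicate 1 (0.0221) or epithelial corpus replicate 2 (0.0486).

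Ratios of counts within a library do not depend on its depth, and they showed how far the members moved together. The summed miR-486-5p names gave 5.07, 6.54 and 7.03 counts per count of miR-451a in whole tissue caput, 6.72 and 8.15 in corpus, and 21.5, 12.4 and 29.3 in cauda. Caput and corpus overlapped and the cauda libraries were all higher, lowest in cauda replicate 2. In epithelial cells the ratio was 4.31 and 4.49 in caput, 4.38 and 13.4 in corpus, and 14.2 and 11.1 in cauda. Cauda exceeded caput, and the corpus libraries spread over nearly the whole range, on 8 and 5 counts of miR-451.

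miR-451a was 1.89, 2.08 and 2.04 times the sum of both miR-144 arms in whole tissue cauda and 2.60 and 1.97 times in corpus, while caput ranged from 1.47 to 5.86 on 7 to 19 counts of miR-144. In epithelial cells it was 4.50 and 7.00 times in caput and 3.65 and 4.08 times in cauda, all above the whole tissue cauda libraries, while corpus replicate 2 was below them at 1.25, from 5 counts against 4. For each count of the miR-144 5p arm there were 1.45, 1.02 and 1.52 of the 3p arm in whole tissue cauda, 3.29 and 1.54 in corpus, and 0.75, 1.38 and 0.429 in caput. The 3p arm thus had more counts in all cauda and corpus libraries and in 1 of 3 caput libraries. This arm led by only 64 counts against 63 in cauda replicate 2, and by 11 against 8 in caput replicate 2. In epithelial cells it led in cauda, with 16 and 7 counts against 10 and 5, and trailed in both caput libraries and in corpus replicate 2, with ratios of 0.667, 0.667 and 0.333. By contrast the miR-486 5p arm outnumbered its 3p arm 43.0, 59.4 and 65.8 times in whole tissue cauda, and from 104 to 265 times in caput and corpus, where the 3p arm had 1 or 2 counts. In epithelial cells it did so 194 and 157 times in caput and 337.8 and 543.0 times in cauda, with 4 and 1 counts of the 3p arm in the latter.

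The ratio of miR-451 to miR-23a-3p is used in plasma as a measure of lysed red cells, since miR-23a-3p changes little with lysis. In whole tissue it was 0.0485, 0.0433 and 0.0358 in caput, 0.113 and 0.0797 in corpus, and 0.0756, 0.164 and 0.0778 in cauda. Caput was lowest without overlap, and corpus and cauda overlapped. In epithelial cells it was 0.116 and 0.0915 in caput, 0.0755 and 0.0549 in corpus, and 0.182 and 0.159 in cauda, lowest in corpus and highest in cauda. miR-23a-3p itself was 1.98-fold higher in whole tissue cauda than in caput (FDR = 9.64e-06) and therefore no fixed reference between these regions. Nor was it one between epithelial corpus and cauda, where it was 1.90-fold higher in cauda (FDR = 0.0335).

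**Figure D2:**
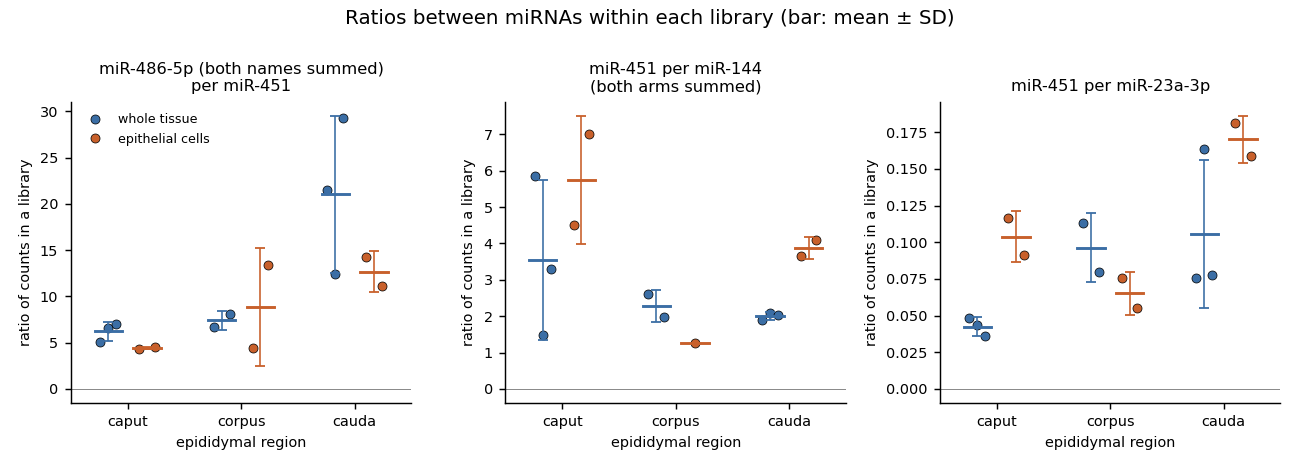
Ratio of counts within each library (vertical axes) for miR-486-5p to miR-451, miR-451 to both miR-144 arms and miR-451 to miR-23a-3p, by region (horizontal axis), in whole tissue (blue) and epithelial cells (orange). Points are libraries and bars the mean ± SD, and the whole tissue cauda libraries reach from 12.4 to 29.3 in the left panel against at most 8.15 in caput and corpus, while epithelial corpus replicate 1, with 0 counts of miR-144, has no point in the middle panel.

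All names of the 3 miRNAs together made up 0.0148%, 0.0134% and 0.0129% of the counts in whole tissue caput, 0.0510% and 0.0453% in corpus, and 0.177%, 0.255% and 0.278% in cauda. In epithelial cells they were 0.0689% and 0.0609% in caput, 0.0338% and 0.0854% in corpus, and 0.521% and 0.338% in cauda. The cauda share was the highest in both preparations, and miR-486 supplied most of it.

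Other miRNAs that are abundant in red cells but also in most tissues were given the same tests. Of 8 such miRNAs, 7 were tested from caput to cauda in whole tissue and 0 were called by limma-voom, against 27.9% of all called higher and 25.4% lower. Their median log2 change was 0.07 beside -0.05 for all miRNAs. Under the 2-fold threshold, miR-16-5p (1.38-fold, FDR = 0.00176), miR-92a-3p (1.34-fold, FDR = 0.00186) and miR-25-3p (1.25-fold, FDR = 0.00472) were higher in cauda. The others tested had an FDR above 0.05. Their summed level was 12419, 14270 and 15236 CPM in caput, 15696 and 17669 CPM in corpus, and 19432, 17868 and 18669 CPM in cauda, mostly miR-16-5p, so that the sum was higher in every cauda library than in every caput library by less than the members. In epithelial cells 1 of 6 was called higher in cauda than in caput, miR-92a-3p (2.14-fold, FDR = 0.0168), against 13.9% of all miRNAs, and the median was 0.71 beside -0.0014 for all. There miR-16-5p (1.69-fold, FDR = 0.00866) and miR-25-3p (1.58-fold, FDR = 0.0140) were higher in cauda under the 2-fold threshold. With library totals 2 of the 6 were called, against 18.1%. The other steps gave calls in both directions. In whole tissue miR-92a-3p was higher in corpus than in caput (1 of 7, against 14.1% of all, 3.34-fold, FDR = 8.11e-07). From corpus to cauda 2 of 7 were called lower, against 12.9%, miR-92a-3p (0.403-fold, FDR = 6.25e-06) and miR-106b-5p (0.493-fold, FDR = 0.000204). In that step miR-486a-5p was the only member called higher that passed the filter through both regions. miR-451a and miR-144-3p also passed through both and were not called by limma-voom. In epithelial cells miR-106b-5p (3.13-fold, FDR = 0.0129) and miR-92a-3p (3.08-fold, FDR = 0.00879) were called higher in corpus than in caput (2 of 6, against 6.34%), where miR-451 was at its lowest. From corpus to cauda 0 of 6 were called by limma-voom, against 6.77% of all called higher and 4.17% lower.

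Leukocyte miRNAs, which blood also carries, were given the same tests. In whole tissue 4 were tested from caput to cauda through both regions, and 2 of them, miR-150-5p and miR-223-3p, were called higher, against 27.9% of all miRNAs (median log2 change 1.07). miR-155-5p, also called, passed the filter through cauda alone. Of these 5, 3 were called higher with TMM, 4 with DESeq2 size factors and 5 with library totals, against 27.9%, 29.3% and 32.4% of all miRNAs. From caput to corpus 1 of 4 was called higher, against 14.1% of all, and from corpus to cauda 1 of 5, against 14.4%, where the log2 change of miR-150-5p was -0.21. Their sum was 966, 1066 and 1160 CPM in caput, 1160 and 1450 CPM in corpus, and 1948, 1982 and 1993 CPM in cauda, mostly miR-142a-5p, which was 1.81-fold higher in cauda than in caput and not called. In epithelial cells both that were tested, miR-142-5p and miR-150-5p, were called higher in cauda than in caput, against 13.9% of all, and the sum was 865 and 470 CPM in caput, 706 and 511 CPM in corpus, and 1586 and 1380 CPM in cauda. From corpus to cauda 1 of these 2 was called higher, miR-150-5p (4.51-fold, FDR = 0.0245), against 6.77%. From caput to corpus limma-voom called 0 of 2, against 12.2% in either direction, with miR-150-5p at 0.653-fold (FDR = 0.411).

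Muscle miRNAs, examined because muscle also makes miR-486, were higher in cauda than in caput of whole tissue. Of 6 striated muscle miRNAs tested from caput to cauda, miR-133b-3p, miR-206-3p, miR-208b-3p and miR-499-5p passed the filter through cauda alone, which set their direction. The other 2, miR-1a-3p and miR-133a-3p, were 14.6-fold (FDR = 0.00595) and 9.19-fold (FDR = 0.00565) higher in cauda, against 27.9% of all miRNAs called higher. The sum of all 6 was 33.4, 34.5 and 33.5 CPM in caput, 62.0 and 176.4 CPM in corpus, and 146.2, 510.4 and 1072 CPM in cauda. miR-133a-3p was the most abundant of the 6 in each library. Of 4 smooth muscle miRNAs, miR-143-5p passed through cauda alone, and the other 3 were called higher in cauda (median log2 change 2.03). By single steps, limma-voom called 0 of 2 striated muscle miRNAs from caput to corpus (median log2 change 1.72) and 0 of 6 between corpus and cauda (2.55). It called 0 of 3 smooth muscle miRNAs in the first step (0.42) and all 4 higher in the second (1.54), miR-143-5p again through cauda alone. Of all miRNAs, 14.1% were called higher in the first step and 14.4% in the second. The log2 changes of miR-486a-5p in these steps were 1.51 and 2.38. The sum of all 4 smooth muscle miRNAs ran from 53228 to 65976 CPM in caput, from 76254 to 80349 CPM in corpus and from 223163 to 249092 CPM in cauda, nearly all miR-143-3p. In epithelial cells, limma-voom called 0 of 3 smooth muscle and 0 of 1 striated muscle miRNAs from caput to cauda, against 13.9% of all called higher. Their median log2 changes were 0.45 and 0.0039, beside 2.72 for miR-486-5p. Smooth muscle miRNAs were not absent there, with sums from 144524 to 336798 CPM, nor were those of striated muscle, with 376.5 and 360.8 CPM in caput, 592.3 and 582.1 CPM in corpus, and 469.2 and 310.5 CPM in cauda.

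Endothelial miR-126a-3p and miR-126a-5p, markers of vessel walls, were not called in whole tissue from caput to cauda (0 of 2, limma-voom, median log2 change 0.24). Of all miRNAs, 27.9% were called higher and 25.4% lower. miR-126a-3p was 1.35-fold higher (FDR = 0.00243), under the 2-fold threshold. The sum of both ran from 13945 to 18250 CPM over all 8 libraries. In epithelial cells the sum of miR-126-3p and miR-126-5p had the same order of regions as miR-451, and both were called lower in corpus than in caput (against 5.85% of all miRNAs) and higher in cauda than in corpus (against 6.77%). Their median log2 changes were -1.20 and 1.86. From caput to cauda limma-voom called 0 of 2 (median 0.67), against 13.9% of all called higher. There miR-126-5p (1.73-fold, FDR = 0.0176) missed only the 2-fold threshold, and miR-451 was called at 2.31-fold (FDR = 0.0166). miR-126-5p was also the miRNA whose log2 CPM followed miR-451 most closely over the 6 epithelial libraries (Pearson r = 0.983).

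The miR-200 family and miR-205-5p, which mark epithelial cells, did not all stand higher in the epithelial cell libraries. In caput the joint fit called miR-205-5p higher there than in whole tissue (4.39-fold, FDR = 2.69e-08) but miR-200a-3p (0.424-fold, FDR = 8.86e-06) and miR-141-3p (0.391-fold, FDR = 8.37e-07) lower, the last 2 not with library totals. These were 1 of 6 higher and 2 of 6 lower, against 12.2% and 24.4% of all miRNAs. In corpus 1 of 6 was called higher, miR-205-5p, against 11.7%, and in cauda 3 of 6, against 16.4%. In whole tissue 5 of the 6 were called lower in cauda than in caput (median log2 change -1.16), opposite to the members, against 25.4% of all miRNAs, and miR-205-5p, at 0.549-fold (FDR = 9.60e-05), missed only the 2-fold threshold. With library totals 1 of 6 was called lower, against 18.3%, at a median of -0.81. In epithelial cells 0 of 6 were called from caput to cauda by limma-voom with TMM, against 13.9% of all called higher and 12.0% lower, at a median of -0.03. It turned to 0.15 with library totals, under which 2 of 6 were called higher, against 18.1% of all. Below the 2-fold threshold, miR-205-5p (1.94-fold, FDR = 0.00215) and miR-200b-3p (1.85-fold, FDR = 0.00991) were higher in epithelial cauda than in caput, and miR-200c-3p (0.551-fold, FDR = 0.0159) and miR-429-3p (0.596-fold, FDR = 0.0152) lower. By single steps there, 1 of 6 was called higher from caput to corpus, miR-141-3p (2.01-fold, FDR = 0.0125), against 6.34%. From corpus to cauda 2 of 6 were called lower, miR-141-3p (0.437-fold, FDR = 0.0102) and miR-200c-3p (0.486-fold, FDR = 0.0245), against 4.17%. Of 4 germ cell and ciliated cell miRNAs, 2 were called higher in whole tissue cauda, against 27.9% of all miRNAs, and the other 2, miR-34c-5p (1.99-fold, FDR = 6.54e-05) and miR-449a-5p (1.61-fold, FDR = 0.0102), were under 2-fold. With library totals 4 were called, against 32.4%. By single steps in whole tissue, 1 of the 4 was called higher from caput to corpus, against 14.1%, and 4 from corpus to cauda, against 14.4%. In epithelial cells 0 were called from caput to cauda by limma-voom with TMM (median 0.20), against 13.9% of all called higher and 12.0% lower. With DESeq2 size factors 1 was called higher, against 14.8% of all. The liver and plasma miRNA miR-122-5p had 0 counts in all 6 epithelial libraries.

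The other lists were compared between preparations in the same joint fit. In caput, where miR-451a and miR-486a-5p were higher in epithelial cells, so were miR-145a-5p (16.9-fold), miR-133a-3p (12.4-fold, FDR = 0.00288), miR-150-5p (2.42-fold), miR-126a-3p (2.23-fold) and miR-143-3p (2.22-fold), while miR-142a-5p (0.381-fold) and miR-16-5p (0.491-fold) were lower, though not with library totals. miR-145a-3p, the opposite arm of the miR-145a-5p hairpin, was not called by limma-voom in caput (0.964-fold, FDR = 0.887) or in corpus (0.703-fold, FDR = 0.267). In corpus, where limma-voom called 0 of 3 members, miR-145a-5p (16.1-fold), miR-133a-3p (7.80-fold, FDR = 0.0203), miR-143-3p (2.36-fold) and miR-25-3p (2.14-fold) were called higher, and miR-142a-5p (0.373-fold), miR-34c-5p (0.420-fold) and miR-16-5p (0.477-fold, not with library totals) lower. In cauda, where miR-451a was called, miR-145a-5p (6.31-fold), miR-150-5p (3.14-fold), miR-126a-5p (2.41-fold), miR-126a-3p (2.39-fold) and miR-92a-3p (2.18-fold) were higher. Called lower there were miR-142a-5p (0.427-fold, not with library totals), miR-145a-3p (0.326-fold) and 3 of 4 germ cell and ciliated cell miRNAs, against 22.5% of all. The part that blood, muscle, vessel or epithelial cell content had in the levels of miR-451, miR-144 and miR-486 was not tested.

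Among 354 other miRNAs in whole tissue, those whose log2 CPM followed miR-451a most closely over the 8 libraries were miR-379-5p (Pearson r = 0.960), miR-381-3p (0.958) and miR-199b-3p (0.945). For miR-486a-5p they were miR-434-3p (0.992), miR-676-5p (0.986) and miR-193b-3p (0.984). miR-451a and miR-486a-5p had r = 0.927 with each other, and the values describe libraries that share regions and scaling. Among 212 others in epithelial cells, miR-451 was followed after miR-126-5p by miR-23a-3p (0.971) and miR-150-5p (0.958), and miR-486-5p by miR-140-5p, miR-379-5p and miR-27a-3p (lowest r 0.925). Of the members there, miR-144-3p had r = 0.972 and miR-451 r = 0.870 with miR-486-5p, the first with 0 and 1 counts in the corpus libraries.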

How the data were processed

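The authors trimmed the small RNA reads, aligned them to mm10 (mouse genome) and miRBase mature miRNAs, and deposited estimated counts (expected counts) for each mature miRNA. The submitters' processing notes name CASAVA 1.8.2, Bowtie 1.1.1 and limma. How reads matching several names were divided is not given in the sources used here. In the epithelial table, 0.001 had been added to each deposited count and was removed. Counts were rounded and fitted with limma-voom (limma 3.58.1, R 4.3.3) with TMM factors (edgeR 4.0.16), in 1 fit for each table and 1 joint fit for both. Tables were joined by name, with 578 names equal, 31 after adding the letter a, and 2 with miR-3107 as miR-486b. A miRNA was tested with a mean count above 10 in either region compared (in a region of both preparations for the joint fit) and called with a Benjamini-Hochberg FDR below 0.05 and at least a 2-fold change. The fits were tested on simulated counts. Alternatives were edgeR, DESeq2 1.42.0, other scaling and count filters, fits of only 2 regions, a replicate block, summed duplicates and leaving out each library. The miRNAs named were the members, their duplicates and opposite arms, miR-23a-3p, marker lists and, for miR-451 and miR-486, the 3 other identified miRNAs with the highest Pearson r. Replicate numbers come from the sample titles. As deviations from the region means, same-numbered caput and cauda libraries of whole tissue correlated at r = 0.217, 0.113 and 0.141 over 360 miRNAs. The members and lists were chosen with earlier results of these data known.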

Additional observations from a re-analysis of the deposited data

How the results depend on the processing

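From caput to cauda in whole tissue, the call of each member tested was kept under every alternative in which it was tested and without each of the 8 libraries. Over all members and comparisons, 661 values under an alternative or without a library kept their direction and side of the thresholds, 21 lost a call, 19 gained a call and 4 reversed. Fits without 1 library of a pair assume that the lone library varies like the other groups. Unless said, the cause was not tested.

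Requiring at least 10 counts in every library left fewer miRNAs to test, which by its construction lowers the counts. No result about the members is read from them. In whole tissue this filter gave 66 calls (100 before) among 260 miRNAs tested from caput to corpus. It gave 112 (189) from caput to cauda, with 2 of 2 members in both comparisons, and 1 of 2 members from corpus to cauda. In epithelial cells it gave 16 calls (25) from caput to corpus and 30 (56) from caput to cauda, with 1 of 1 members there and from corpus to cauda. Epithelial cells against whole tissue gave 47 calls (78) and 1 of 1 members in caput, 38 (64) in corpus, and 45 (83) and 0 of 1 members in cauda with limma-voom. The interaction from caput to cauda gave 28 (43).

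Testing all miRNAs with at least 1 count gave 84 epithelial calls (25) from caput to corpus and 40 (21) between corpus and cauda. Epithelial cells against whole tissue gave 230, 276 and 265 calls in caput, corpus and cauda, with 2 of 5 members in cauda. The interactions gave 40 calls (11) from caput to corpus, 22 (10) and 1 of 5 members between corpus and cauda, and 1 of 5 members from caput to cauda. By its construction this filter tested more miRNAs, and no result about the members is read from these counts.

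DESeq2 called 2 members in the interaction from caput to corpus, 21 miRNAs (10) between corpus and cauda and 1 member from caput to cauda, where edgeR and library totals also called 1. With library totals the interactions gave 5 calls (11) from caput to corpus and 17 (10) between corpus and cauda.

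Library totals moved the median log2 change of all miRNAs by up to 0.35 within a preparation and 0.42 between preparations, and so the direction of calls. Higher and lower calls went from 47 and 53 to 76 and 35 in whole tissue from caput to corpus, and from 99 and 90 to 115 and 65 from caput to cauda. In epithelial cells they went from 13 and 12 to 18 and 9, and from 30 and 26 to 39 and 19. Epithelial cells against whole tissue went from 26 and 52 to 49 and 27 in caput and from 35 and 48 to 51 and 34 in cauda. The interactions went from 9 and 2 to 1 and 4, from 7 and 3 to 14 and 3, and from 30 and 13 to 16 and 17.

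A replicate block called 5 of 5 members in whole tissue from corpus to cauda, where 101 of all 341 miRNAs were called in either direction. It added miR-451a (FDR = 0.0110, range to 0.0955) and miR-144-3p (FDR = 0.0283, range to 0.214), and changed no other call of a member. Same-numbered libraries there correlated at r = 0.242 and 0.156, in whole tissue caput and corpus at -0.0022 and -0.0314, and the labels do not say what a number shares. Column names of the whole tissue counts number the libraries on through the regions, with a gap before corpus, and so do not give these pairs. A crossed block in epithelial cells (numbers exchanged in cauda), chosen after seeing the data, gave 40 calls (25) of 205 miRNAs from caput to corpus. Between corpus and cauda it gave 32 (21) of 192, with 3 of 3 members.

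Without 1 library, members called ranged from 2 to 5 in whole tissue from corpus to cauda, from 0 to 2 in epithelial cells from corpus to cauda, from 1 to 3 from caput to cauda, from 0 to 1 between preparations in cauda, and from 0 to 1 in the interactions from caput to corpus and from caput to cauda. Calls of all miRNAs ranged from 10 to 30, from 4 to 27 and from 26 to 60 in the epithelial comparisons, from 41 to 67 between preparations in corpus, and from 4 to 12, from 7 to 18 and from 26 to 47 in the interactions. Log2 values that reversed were miR-486-5p in epithelial cells from caput to corpus (-0.86 to 0.35), miR-451a (-0.044 to 0.38) and miR-486a-5p (-0.44 to 0.78) between preparations in corpus, and miR-486a-5p in the interaction from corpus to cauda (-0.17 to 1.06).

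The depth of the epithelial corpus libraries, 127111 and 89039 counts, limits every comparison with them, since 3 counts there equal 24.3 and 30.6 CPM.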
